A study of Mus musculus with 15 samples.

Results

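The genes described here copy DNA or govern entry into S phase. The list holds 49 genes, chosen by function, and 48 of them have an array row of their own among the 22180 genes measured. The row of Rfc4, a clamp loader subunit, is shared with Eif4a2 and was left out. Where a gene had several rows, the row with the highest mean over the libraries stood for it. All values are log2 expression from whole-transcript arrays, so a difference of 1 is a factor of 2 in signal.

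RNA came from cells of the cerebella of newborn mice on a C57BL/6 background, 15 libraries in 3 groups of 5. The GSK-3 DKO cerebella lack Gsk-3 alpha as well as Gsk-3 beta, the isoforms of glycogen synthase kinase 3, in their granule neuron progenitors (CGNPs). In the Math1-Cre control, described as Gska+- and GskBff with M1Cre, only Gsk-3 beta is deleted. The no-Cre control is described as Gska+- and GskBff without Cre, with Gsk-3 intact; for replicate 5 the description gives only Gska+- and no Cre. Every control thus carries 1 altered Gsk3a allele, and the labels do not say whether that allele is a germline null. The Math1 (Atoh1) promoter limits Cre to the Atoh1 lineage, while the RNA came from cells of the whole cerebellum after enrichment of progenitors on a density gradient. The age is given as postnatal day 1 in the sample label and day 2 in the growth protocol, and the lowest RNA integrity number allowed was 7.5. Each library holds the RNA of 1 replicate. The labels name no litter or day, so a p-value sets a group difference against the spread between these samples, whatever its source. The question the groups address is what loss of Gsk-3 does to the transcripts of cerebellar progenitors.

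Replication is prepared in G1, when the origin recognition complex, Cdc6 and Cdt1 load the Mcm2-7 ring onto DNA as an inactive helicase. At the G1/S transition Cdc45 and the GINS complex join the ring and activate it, primase and the polymerases follow, and the clamp Pcna holds the polymerases on the template. Many of these genes are targets of E2F factors, which the retinoblastoma proteins hold back until cyclin-dependent kinases release them. Granule neuron progenitors divide in the outer layer of the newborn cerebellum under Sonic hedgehog, and replication transcripts fall as they leave the cell cycle.

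The row annotated to Gsk3a, which also carries the symbol 9130221H12Rik, stood at 9.47, 8.22, 9.37, 7.89 and 8.27 in DKO 1 to 5. It stood at 8.25, 8.03, 9.48, 9.50 and 9.51 in Math1-Cre 1 to 5 and between 9.42 and 9.59 in the no-Cre libraries. It was therefore high in the libraries labelled DKO 1 and DKO 3 and low in those labelled Math1-Cre 1 and Math1-Cre 2, against their labels. In what follows a group name means the libraries labelled so. Summaries over genes are given for each comparison of groups over all 15 libraries and again over the 11 left without those 4. For many single genes only the 11-library difference is given. The median of DKO minus no-Cre over 48 genes was -0.32 with 15 libraries and -0.43 with 11. With 15, the spread within the DKO and Math1-Cre groups includes low and high Gsk3a rows. With 11, chosen by that row, DKO libraries with a low row are compared with controls with a high row. The Gsk3b row (10.59 to 10.98 where the Gsk3a row was low, 10.61 to 10.93 elsewhere) did not separate the libraries. By label it was 10.59 to 10.98 in DKO, 10.68 to 10.93 in Math1-Cre and 10.61 to 10.84 in no-Cre. The row thus did not show the Gsk-3 beta deletion described for the Cre groups, and the reason was not tested. The interquartile range of the array's gene values was 4.00 in no-Cre 4, 4.06 to 4.12 in DKO 3, 4 and 5 and 4.22 to 4.40 in the others. Olfactory and vomeronasal receptor genes, which mark the array's background here, had medians from 3.50 to 4.11 per library. The replication genes lay above that background except Fen1, whose mean of 3.90 was within it; Orc1, at 4.29, was close to it.

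Many replication genes are known for E2F words in their promoters, so the promoters were searched for them. RefSeq promoters of GRCm38.p6, from 250 bases before to 50 after the start site, were found for 40 of the 48 genes. The words TTTCCCGC, TTTGGCGC, TTTCGCGC and TTTGCCGC were searched on both strands, with overlapping words counted each. At least 1 word stood in 16 of 40 replication genes (40.0%), against 2.6% of all 27025 genes with a promoter of that length and 3.26% of the 16990 genes measured on these arrays. The 160 bases before the start site of Cdc6, Mcm5, Mcm6, Orc1 and Gins3 show what such words look like where they lie upstream of the start, and Tk1 is a nucleotide supply gene without one. Each runs 5′ to 3′ and capitals mark the words.
Cdc6: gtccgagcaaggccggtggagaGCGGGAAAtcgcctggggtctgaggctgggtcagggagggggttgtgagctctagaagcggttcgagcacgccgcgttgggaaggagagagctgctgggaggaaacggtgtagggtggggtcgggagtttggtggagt
Mcm5: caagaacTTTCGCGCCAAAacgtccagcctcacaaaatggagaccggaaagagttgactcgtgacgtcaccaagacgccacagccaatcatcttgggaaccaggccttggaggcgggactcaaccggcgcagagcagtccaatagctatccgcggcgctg
Mcm6: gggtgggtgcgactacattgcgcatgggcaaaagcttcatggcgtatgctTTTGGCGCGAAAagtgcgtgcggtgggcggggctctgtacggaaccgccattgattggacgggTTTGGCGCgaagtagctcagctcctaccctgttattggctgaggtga
Orc1: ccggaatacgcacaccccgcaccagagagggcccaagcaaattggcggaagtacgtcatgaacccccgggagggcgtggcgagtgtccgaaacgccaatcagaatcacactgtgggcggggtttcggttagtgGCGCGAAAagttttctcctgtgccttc
Gins3: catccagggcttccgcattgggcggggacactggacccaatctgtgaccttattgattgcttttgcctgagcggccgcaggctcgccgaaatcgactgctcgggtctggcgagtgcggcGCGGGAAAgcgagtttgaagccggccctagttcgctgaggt
Tk1: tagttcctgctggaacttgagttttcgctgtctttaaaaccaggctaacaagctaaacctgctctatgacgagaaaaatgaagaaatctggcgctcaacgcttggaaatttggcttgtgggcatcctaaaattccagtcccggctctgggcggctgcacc
In GRCm38.p6 these are, in that order, chr11:98907991-98908150 on the plus strand, chr8:75109349-75109508 on the plus strand, chr1:128359706-128359865 on the minus strand, chr4:108579294-108579453 on the plus strand, chr8:95633399-95633558 on the plus strand and chr11:117826015-117826174 on the minus strand. In Mcm5 the run holds TTTCGCGC and, overlapping it on the other strand, TTTGGCGC. Mcm6 has such an overlapping pair and a further TTTGGCGC nearer the start. By role, a word was found in 3 of 4 licensing genes, 5 of 8 helicase genes, 4 of 7 primase and polymerase genes and 0 of 4 nucleotide supply genes. The clamp genes had it in 1 of 4, the single-strand binding and Okazaki fragment genes in 1 of 5, and the chromatin and the G1/S control genes in 1 of 4 each. CCAAT, a common promoter word, stood in 62.5% of the replication genes and 41.1% of all genes. A match describes the letters of this window and is no evidence of binding.

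Replication genes were lower in the DKO libraries than in the no-Cre libraries in 46 of 48 cases, by a median of 0.32 on the log2 scale, where 54.1% of all genes lay below 0 and the all-gene median was -0.02. The gene differences ran from -0.63 in Gins3 to 0.05 in Rfc2. No gene passed limma at an adjusted p of 0.05: 0 of 48 were called lower and 0 higher, against 0.0541% and 0.018% of all genes. At an unadjusted p under 0.05, 31 of 48 were lower and 0 higher, against 11.9% and 5.54% of all genes. Only Pcna and Mcm7 had all 5 DKO libraries below all 5 no-Cre libraries, 2 of 48 genes against 1.96% of all genes. Centring the arrays on their medians raised every DKO minus no-Cre difference by 0.10, which left 44 of 48 genes below 0, and under quantile normalization 46 of 48 were below 0. Without no-Cre 4, 7 replication genes were called lower (Fen1, Gins3, Gins4, Orc1, Prim1, Rfc3 and Rrm1), against 5.29% of all genes. Without DKO 1, 1 gene (Fen1) was called. With each library left out, the count over all genes ran from 0 to 1546.

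Over the 11 libraries the mean of DKO 2, 4 and 5 lay below the no-Cre mean for all 48 replication genes, by a median of 0.43 on the log2 scale, where 55.9% of all genes lay below 0. Cdc6, Mcm3, Clspn and Fen1 were called lower, 4 of 48 genes at a limma adjusted p under 0.05 against 0.64% of all genes. The number called higher was 0, against 0.437%. The 11 libraries were chosen by the Gsk3a row, so these p-values compare low with high rows and take no account of that choice. The Fen1 row used is at the array's background, and with the mean over both Fen1 rows that gene was not called (adjusted p = 0.0915, limma). Mcm3, a ring subunit of the helicase, differed by -0.84 ± 0.16 (SE), a factor of 1.8 (adjusted p = 0.0279, limma). Cdc6, the licensing factor, differed by -0.77 ± 0.16, a factor of 1.71 (adjusted p = 0.0409, limma). At an unadjusted p under 0.05, 41 of 48 were lower, against 8.1% of all genes, and in 22 of 48 the groups did not overlap, against 4.9%. The count of 4 depended on single libraries: it was 20 without no-Cre 4 (2.98% of all genes), 0 without DKO 4, 1 without DKO 2 or without no-Cre 2 and 2 without no-Cre 1. It was also 2 with centring, 1 with array spread as a covariate, 1 when only these groups entered the fit and 0 with the replicate number as a block. Without the replicate-5 libraries, whose descriptions share a code, Cdc6, Fen1 and Clspn were not called, and Mcm3, Cdc45 and Tk1 were. The count over all genes also moved when single libraries were left out, from 80 without DKO 4 to 1060 without no-Cre 4. The counts of replication genes in these settings therefore cannot be read alone.

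**Figure D1:**
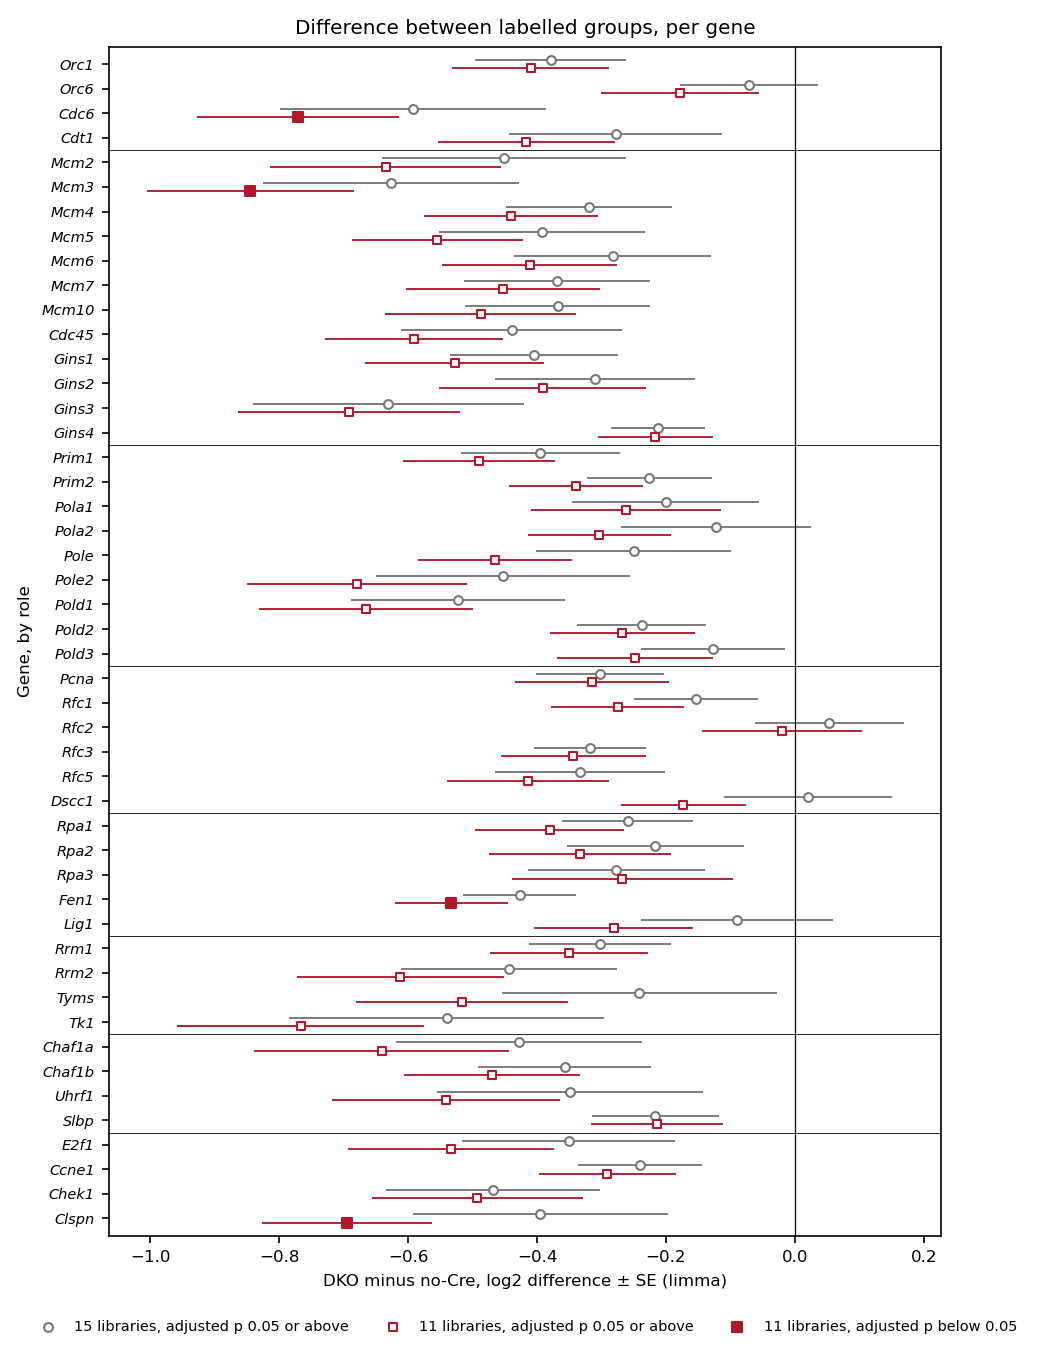
Difference between the DKO and no-Cre groups for each replication gene (rows, by role) on the log2 scale, with its SE from limma; grey circles use 15 libraries, red squares the 11 left without DKO 1, DKO 3, Math1-Cre 1 and Math1-Cre 2, and filled squares mark an adjusted p below 0.05. In the 11-library fit all 48 points lie below 0 and those of Cdc6, Mcm3, Fen1 and Clspn are filled.

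Library by library, the replication genes divided as the Gsk3a row did. The median over the 48 genes of the difference from the no-Cre mean was -0.57 in DKO 2, -0.44 in DKO 4 and -0.28 in DKO 5. In Math1-Cre 1 it was -0.46 and in Math1-Cre 2 -0.42. In the Cre libraries with a high row it was -0.10 in DKO 1, -0.22 in DKO 3 and -0.18, -0.01 and 0.02 in Math1-Cre 3, 4 and 5. The no-Cre libraries themselves ran from -0.23 in no-Cre 4 to 0.19 in no-Cre 1. All 5 libraries with a low row thus lay below all 10 with a high row, although no-Cre 4 and DKO 3 came close to DKO 5. Between 46 and 48 of the 48 genes lay below the no-Cre mean in each low-row library, but so did 47 in no-Cre 4. Over all genes the library medians of the same difference stayed between -0.11 and 0.05.

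**Figure D2:**
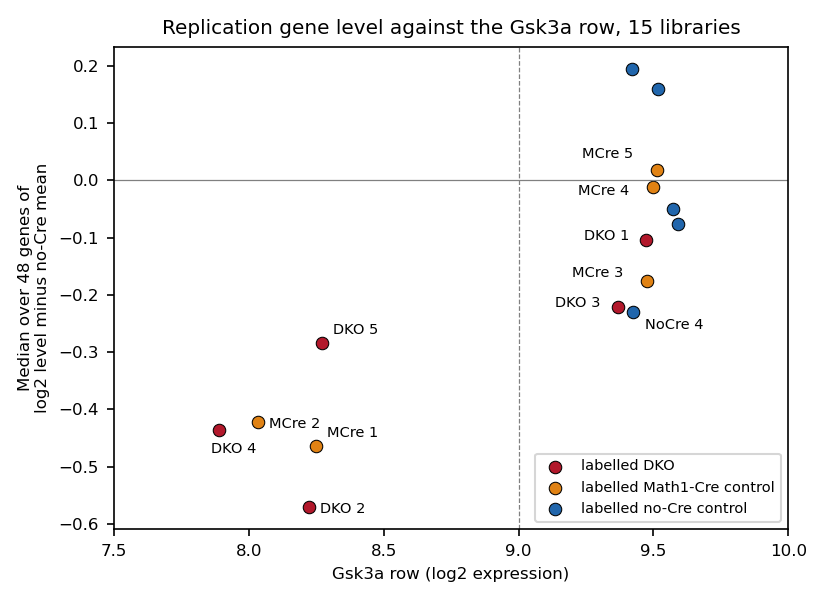
Each point is 1 library: the Gsk3a row (log2 expression, horizontal) against the median over 48 replication genes of the log2 level minus the no-Cre mean (vertical), coloured by label (MCre, Math1-Cre; NoCre, no-Cre), with the dashed line at 9.0. The 5 libraries left of the line lie between -0.57 and -0.28, and the 10 to its right between -0.23 and 0.19.

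The split by the Gsk3a row is a measured property of the libraries, so the values given here carry no test. The limma fit without the libraries that went against their labels was chosen by the same row. In that fit every DKO library had a low row and every control library a high row. Its p-values for DKO against either control therefore compare low with high rows, and they take no account of that choice. In 19 of 48 replication genes the 5 low-row libraries all lay below the 5 no-Cre libraries, where 1.89% of all genes did so. Against the 5 Cre libraries with a high row the count was 15 of 48 (1.8% of all genes). For Cdc6, Mcm3, Mcm4, Pole, Pold1, Rrm2, Chaf1b and Clspn the low-row libraries lay below all 10 others, 8 of 48 genes against 0.843%. In those 3 comparisons 0 of 48 genes had the low-row libraries all on top, against 1.1%, 0.987% and 0.663% of all genes. In 0 of 48 did the Cre libraries with a high row all lie below no-Cre (0.158% of all genes) or all above (0.252%). The mean difference of the low-row libraries from no-Cre was below 0 in 48 of 48 genes, with a median of -0.45 and a range from -0.91 to -0.06, while the all-gene median was -0.003. For the Cre libraries with a high row the median difference from no-Cre was -0.10 (range -0.42 to 0.17), and 37 of 48 genes were below 0. By role, the low-row median was most negative for nucleotide supply (-0.60) and for G1/S control and checkpoint (-0.55) and least for the clamp and clamp loaders (-0.25).

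**Figure D3:**
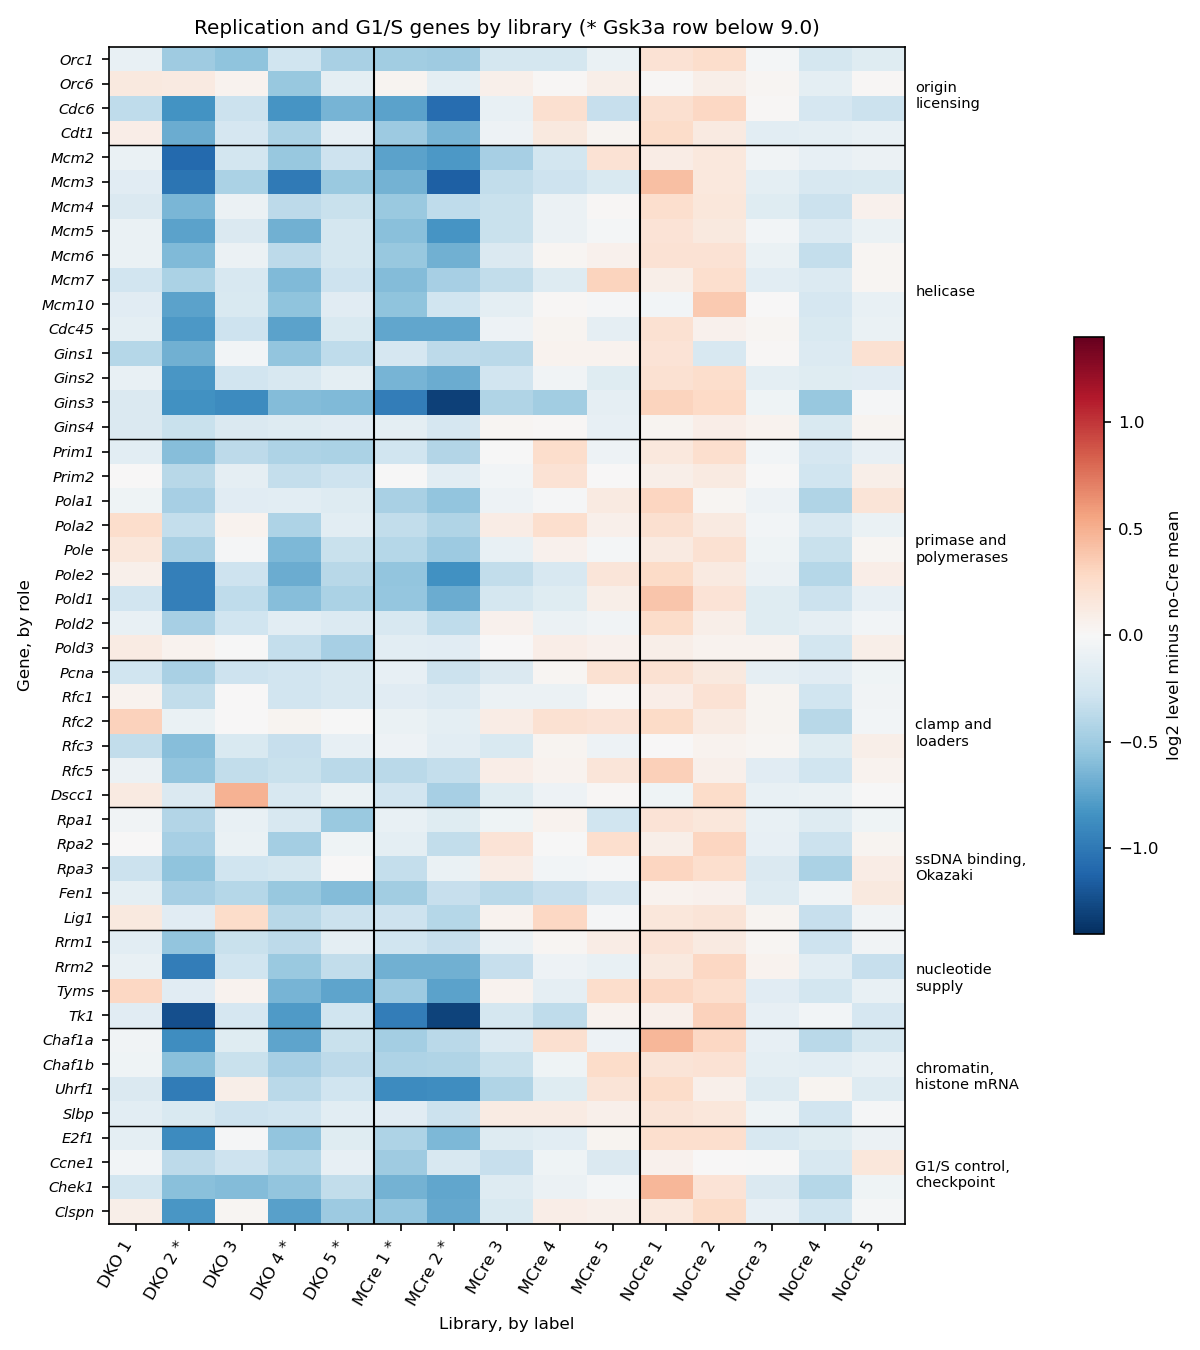
Log2 level of each of 48 replication genes (rows, by role) in each of 15 libraries (columns, by label; MCre, Math1-Cre; NoCre, no-Cre) minus that gene's mean over the 5 no-Cre libraries, blue below and red above; an asterisk marks a Gsk3a row below 9.0. The columns with an asterisk are blue in nearly all rows, DKO 1 and Math1-Cre 4 and 5 are mixed, and no-Cre 4 is pale blue throughout most rows.

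In bulk RNA, fewer cells of a type and less RNA per cell cannot be told apart, and the mean level of progenitor markers divided the low-row libraries from the others, as the replication genes did. All 10 granule progenitor markers listed were measured and above background; their mean level was 8.23 to 8.40 in the low-row libraries, 8.70 to 8.83 in the Cre libraries with a high row and 8.64 to 9.04 in no-Cre. The markers did not move alike. Over 11 libraries 9 of 10 were below 0 for DKO minus no-Cre, and limma called Atoh1, Mycn and Mfap4 lower (0.64% of all genes). For DKO minus Math1-Cre 7 of 10 were below 0, and Mycn and Mfap4 were called lower (0.252% of all genes). Over 15 libraries 8 of 10 and 5 of 10 were below 0 in these comparisons, and limma called 0 in either. Atoh1, which defines the lineage, ran from 7.81 to 8.65 in the low-row libraries, from 8.54 to 9.09 in the Cre libraries with a high row and from 8.94 to 9.31 in no-Cre, so it overlapped between the low-row and high-row Cre libraries. Zic1 (11.24 to 11.47, 11.20 to 11.32 and 11.12 to 11.51) and Pax6 (9.04 to 9.32, 9.01 to 9.65 and 9.10 to 9.51) overlapped in all 3. Mki67, a marker of cycling cells, ran from 8.57 to 9.01, from 9.17 to 9.71 and from 9.20 to 9.80. The parts of progenitor number and of the enrichment of progenitors on the gradient in the replication gene values were not tested. The mean level of postmitotic granule neuron markers overlapped (8.25 to 8.44 in the low-row libraries, 8.31 to 8.56 in no-Cre), but single markers moved opposite ways. Gabra6, a GABA-A receptor subunit, was 4.76 to 6.02 in the low-row libraries and 3.50 to 3.95 in no-Cre. Grin2c, an NMDA receptor subunit, was 3.49 to 4.08 and 4.29 to 4.98, and Neurod1, a neuronal transcription factor, 4.57 to 5.01 and 5.13 to 5.73. In the Cre libraries with a high row Neurod1 was 4.50 to 5.27, so it overlapped the low-row range. Over 11 libraries limma called Gabra6 higher in DKO than in no-Cre (1.70 ± 0.21, adjusted p = 0.00239). Grin2c was called lower (-1.02 ± 0.17, adjusted p = 0.0123, limma). That is 1 of the 10 markers each way, against 0.437% of all genes higher and 0.64% lower. Over 15 libraries limma called 0 of the 10. The mean level of astrocyte markers overlapped (8.33 to 8.65 and 8.04 to 8.57). Endothelial (7.17 to 7.48 and 7.21 to 7.76), meningeal (7.58 to 8.24 and 7.71 to 8.12) and choroid plexus list means (7.94 to 8.71 and 8.31 to 8.89) overlapped, as did microglia (5.37 to 5.97 and 5.27 to 5.91). Between the labelled groups these lists were lower beside the replication genes: over 15 libraries the median DKO minus no-Cre difference was -0.73 for choroid plexus (5 of 5 below 0), -0.33 for microglia (6 of 7), -0.29 for meningeal markers (6 of 7) and -0.26 for endothelial markers (7 of 7). Over 11 libraries it was -0.54, -0.26, -0.02 and -0.22. Limma called 0 of these markers in either fit (1 to 3 of each list lower at an unadjusted p under 0.05 over 15 libraries, 0 or 1 over 11), and their part in the replication gene values was not tested. The list means of oligodendrocyte (6.72 to 7.06 and 6.62 to 7.13) and GABAergic interneuron markers (7.10 to 7.22 and 6.94 to 7.35) also overlapped between the low-row and no-Cre libraries. Of the 7 Purkinje markers 5 were measured (8.87 to 9.09 and 8.82 to 8.99). Of the 13 hindbrain markers 11 were measured and 2 were above background (list means 3.56 to 4.11 and 3.55 to 4.60).

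The licensing genes differed between the DKO and no-Cre groups by a median of -0.33 over the 4 genes with 15 libraries and -0.41 with 11. Cdc6, which helps load the Mcm ring, stood at 5.56, 5.08, 5.62, 5.09 and 5.27 across DKO 1 to 5, 5.17, 4.86, 5.81, 6.14 and 5.60 across Math1-Cre 1 to 5 and 6.14, 6.21, 5.93, 5.69 and 5.62 across no-Cre 1 to 5. Its 5 lowest values are the 5 libraries with a low Gsk3a row, and DKO 1 and 3 lay close to the lowest no-Cre library. Over 15 libraries the difference was -0.59 ± 0.21 (adjusted p = 0.172, limma). Cdt1, the partner of Cdc6 in loading, stood at 7.34, 6.55, 7.02, 6.80 and 7.13 across DKO 1 to 5, 6.74, 6.60, 7.17, 7.39 and 7.28 across Math1-Cre 1 to 5 and 7.50, 7.37, 7.10, 7.10 and 7.14 across no-Cre 1 to 5. DKO 2 and Math1-Cre 2 were lowest and DKO 5 lay within the no-Cre range. The 11-library difference was -0.42 ± 0.14 (95% interval -0.72 to -0.12, adjusted p = 0.228, limma). Orc1, the largest subunit of the origin recognition complex, stood at 4.42, 4.03, 3.97, 4.25 and 4.06 across DKO 1 to 5, 4.04, 4.02, 4.27, 4.27 and 4.44 across Math1-Cre 1 to 5 and 4.72, 4.77, 4.49, 4.28 and 4.35 across no-Cre 1 to 5. Here DKO 3, with a high Gsk3a row, had the lowest value of all, near background. The 11-library difference was -0.41 ± 0.12 (adjusted p = 0.172, limma). Orc6, another subunit, stood at 8.67, 8.66, 8.58, 8.01 and 8.41 across DKO 1 to 5, 8.57, 8.40, 8.60, 8.56 and 8.62 across Math1-Cre 1 to 5 and 8.55, 8.62, 8.57, 8.40 and 8.55 across no-Cre 1 to 5. Only DKO 4 stood clearly lower, the remaining libraries overlapped, and the 11-library difference was -0.18 ± 0.12 (adjusted p = 0.572, limma). Over 15 libraries it was -0.07 ± 0.11, and its sign turned with centring, with array spread and without DKO 4.

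The helicase genes had a median difference of -0.38 over 12 genes with 15 libraries, from -0.63 to -0.21. At an unadjusted p under 0.05, 10 of 12 were lower, against 11.9% of all genes. With 11 libraries the median was -0.51 and all 12 were lower at that unadjusted p, against 8.1% of all genes. After adjustment 1 of them was, against 0.64%. Mcm3 stood at 7.57, 6.70, 7.29, 6.73 and 7.21 across DKO 1 to 5, 7.06, 6.58, 7.38, 7.44 and 7.51 across Math1-Cre 1 to 5 and 8.15, 7.88, 7.59, 7.51 and 7.51 across no-Cre 1 to 5. Its low-row values ran up to 7.21 and the others started at 7.29. Mcm2, another ring subunit, stood at 8.54, 7.55, 8.37, 8.11 and 8.34 across DKO 1 to 5, 7.88, 7.83, 8.17, 8.37 and 8.83 across Math1-Cre 1 to 5 and 8.74, 8.78, 8.58, 8.52 and 8.55 across no-Cre 1 to 5. DKO 5 came close to DKO 3, DKO 1 lay within the no-Cre range, and Math1-Cre 5 was the highest value of all. The 11-library difference of Mcm2 was -0.63 ± 0.18 (adjusted p = 0.146, limma). Mcm6, also in the ring, stood at 8.63, 8.11, 8.65, 8.36 and 8.48 across DKO 1 to 5, 8.20, 8.06, 8.52, 8.75 and 8.79 across Math1-Cre 1 to 5 and 8.93, 8.93, 8.63, 8.39 and 8.75 across no-Cre 1 to 5. No-Cre 4 lay between DKO 4 and DKO 5, and the 11-library difference was -0.41 ± 0.14 (adjusted p = 0.227, limma).

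The GINS subunits, which join the ring with Cdc45, included the most and the least negative helicase genes over 15 libraries. Gins3 stood at 6.28, 5.64, 5.61, 5.88 and 5.87 across DKO 1 to 5, 5.51, 5.17, 6.07, 6.00 and 6.36 across Math1-Cre 1 to 5 and 6.80, 6.77, 6.43, 5.96 and 6.47 across no-Cre 1 to 5. Math1-Cre 2 was lowest, and DKO 3 lay among the low-row libraries although its Gsk3a row was high. The difference was -0.63 ± 0.21 over 15 libraries (adjusted p = 0.159, limma) and -0.69 ± 0.17 over 11 (adjusted p = 0.0983, limma). Gins4 stood at 8.86, 8.75, 8.86, 8.89 and 8.90 across DKO 1 to 5, 8.93, 8.83, 9.09, 9.08 and 8.95 across Math1-Cre 1 to 5 and 9.10, 9.16, 9.12, 8.85 and 9.10 across no-Cre 1 to 5. All 5 DKO libraries lay below 4 of the no-Cre libraries, whereas no-Cre 4 was as low as they were. The 15-library difference of Gins4 was -0.21 ± 0.07 (adjusted p = 0.168, limma). Gins1 and Gins2 differed by -0.53 ± 0.14 and -0.39 ± 0.16 over 11 libraries. Of the rest, Mcm4, Mcm5 and Mcm7 of the ring differed by -0.44 ± 0.14, -0.55 ± 0.13 and -0.45 ± 0.15, and Mcm10 and Cdc45, which help activate it, by -0.49 ± 0.15 and -0.59 ± 0.14. None of these 7 genes passed the adjusted threshold in the 11-library fit.

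Primase and polymerase genes had a smaller median difference, -0.24 over 9 genes with 15 libraries and -0.34 with 11. In either fit 0 of 9 passed limma, against 0.0541% and 0.64% of all genes called lower. At an unadjusted p under 0.05, 5 and 7 were lower, against 11.9% and 8.1% of all genes. Pold1, the catalytic subunit of polymerase delta, stood at 7.42, 6.73, 7.34, 7.10 and 7.25 across DKO 1 to 5, 7.15, 6.99, 7.44, 7.52 and 7.77 across Math1-Cre 1 to 5 and 8.08, 7.88, 7.52, 7.39 and 7.58 across no-Cre 1 to 5. The 5 low-row libraries were lowest, and the 11-library difference was -0.66 ± 0.17 (adjusted p = 0.0983, limma). Pola1, the catalytic subunit of polymerase alpha, stood at 7.37, 6.97, 7.28, 7.29 and 7.26 across DKO 1 to 5, 6.98, 6.88, 7.36, 7.42 and 7.56 across Math1-Cre 1 to 5 and 7.73, 7.46, 7.36, 7.01 and 7.61 across no-Cre 1 to 5. No-Cre 4 was nearly as low as Math1-Cre 1, and the 11-library difference was -0.26 ± 0.15 (adjusted p = 0.485, limma). Pola2, its accessory subunit, stood at 8.37, 7.79, 8.17, 7.69 and 7.97 across DKO 1 to 5, 7.78, 7.70, 8.22, 8.36 and 8.19 across Math1-Cre 1 to 5 and 8.35, 8.25, 8.09, 7.90 and 8.02 across no-Cre 1 to 5. DKO 1 was the highest value of all, and the groups overlapped over 15 libraries. The difference was -0.12 ± 0.15 with 15 libraries and -0.30 ± 0.11 with 11 (adjusted p = 0.69 and 0.279, limma). The primase subunits Prim1 and Prim2 differed by -0.49 ± 0.12 and -0.34 ± 0.10 over 11 libraries. Pole and Pole2 of polymerase epsilon differed by -0.47 ± 0.12 and -0.68 ± 0.17, and the delta subunits Pold2 and Pold3 by -0.27 ± 0.11 and -0.25 ± 0.12.

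The clamp and its loaders differed least, with a median of -0.23 over 6 genes with 15 libraries and -0.29 with 11. Pcna, the sliding clamp, stood at 10.61, 10.44, 10.60, 10.62 and 10.66 across DKO 1 to 5, 10.77, 10.59, 10.68, 10.92 and 11.10 across Math1-Cre 1 to 5 and 11.10, 11.02, 10.77, 10.73 and 10.83 across no-Cre 1 to 5. The 5 DKO libraries, DKO 1 and 3 included, lay below the 5 no-Cre libraries, while Math1-Cre 1 lay among the no-Cre values and Math1-Cre 5 was level with the highest of them. DKO 1 and 3 therefore did not stand apart from DKO 4 and 5 in Pcna. The 15-library difference of Pcna was -0.30 ± 0.10 (adjusted p = 0.156, limma). Rfc5, a subunit of the clamp loader, stood at 7.19, 6.72, 6.93, 6.96 and 6.90 across DKO 1 to 5, 6.90, 6.94, 7.37, 7.33 and 7.44 across Math1-Cre 1 to 5 and 7.60, 7.34, 7.11, 6.99 and 7.32 across no-Cre 1 to 5. No-Cre 4 lay below DKO 1 and close to DKO 4, and the 11-library difference was -0.41 ± 0.13 (adjusted p = 0.181, limma). Dscc1, of the loader used in sister chromatid cohesion, stood at 5.88, 5.55, 6.24, 5.53 and 5.66 across DKO 1 to 5, 5.48, 5.29, 5.58, 5.68 and 5.77 across Math1-Cre 1 to 5 and 5.69, 6.01, 5.65, 5.66 and 5.74 across no-Cre 1 to 5. DKO 3 was the highest and Math1-Cre 2 the lowest, and the sign of the group difference turned with DKO 1, DKO 3, no-Cre 3 or no-Cre 4 left out. It was 0.02 ± 0.13 over 15 libraries and -0.17 ± 0.10 over 11 (adjusted p = 0.952 and 0.482, limma). Rfc2 differed by -0.02 ± 0.12 over 11 libraries, Rfc1 by -0.27 ± 0.10 and Rfc3 by -0.34 ± 0.11.

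Single-strand binding and Okazaki fragment genes had a median of -0.26 over 5 genes with 15 libraries and -0.33 with 11. Fen1, the nuclease that trims Okazaki fragments, stood at 4.02, 3.70, 3.76, 3.63 and 3.55 across DKO 1 to 5, 3.68, 3.84, 3.79, 3.84 and 3.92 across Math1-Cre 1 to 5 and 4.20, 4.22, 3.98, 4.11 and 4.29 across no-Cre 1 to 5. The difference on this row was -0.43 ± 0.09 over 15 libraries (adjusted p = 0.0686, limma) and -0.53 ± 0.09 over 11 (adjusted p = 0.0135, limma). All Math1-Cre libraries, with either Gsk3a row, lay below the no-Cre libraries. The row is at background, so no fold is given. A second Fen1 row differed by -0.16 and -0.30, and the mean of both rows by -0.42 ± 0.10 over 11 libraries (adjusted p = 0.0915, limma). Lig1, the ligase that seals the fragments, stood at 8.26, 7.96, 8.38, 7.74 and 7.82 across DKO 1 to 5, 7.83, 7.72, 8.17, 8.41 and 8.10 across Math1-Cre 1 to 5 and 8.28, 8.31, 8.16, 7.79 and 8.07 across no-Cre 1 to 5. DKO 3 and Math1-Cre 4 were highest, and DKO 2 lay within the no-Cre range. The difference was -0.09 ± 0.15 over 15 libraries, with the sign turned by centring and by array spread, and -0.28 ± 0.12 over 11 (adjusted p = 0.779 and 0.375, limma). The replication protein A genes Rpa1, Rpa2 and Rpa3, which coat single-stranded DNA, differed by -0.38 ± 0.12, -0.33 ± 0.14 and -0.27 ± 0.17 over 11 libraries.

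Nucleotide supply genes had a median of -0.37 over 4 genes with 15 libraries and -0.56 with 11. In either fit 0 of 4 passed limma, against 0.0541% and 0.64% of all genes called lower. At an unadjusted p under 0.05, 3 and 4 were lower, against 11.9% and 8.1% of all genes. Rrm2, the regulated subunit of ribonucleotide reductase, stood at 8.49, 7.63, 8.32, 8.08 and 8.26 across DKO 1 to 5, 7.92, 7.92, 8.28, 8.53 and 8.49 across Math1-Cre 1 to 5 and 8.74, 8.89, 8.65, 8.45 and 8.27 across no-Cre 1 to 5. DKO 5 lay just below the lowest no-Cre value, and the low-row libraries were below all others. Its 11-library difference was -0.61 ± 0.16 (95% interval -0.96 to -0.26, adjusted p = 0.113, limma). Tyms, thymidylate synthase, stood at 8.06, 7.60, 7.81, 7.12 and 7.02 across DKO 1 to 5, 7.25, 7.01, 7.81, 7.64 and 8.01 across Math1-Cre 1 to 5 and 8.06, 8.00, 7.61, 7.51 and 7.66 across no-Cre 1 to 5. DKO 1, 2 and 3 lay at no-Cre levels, and the 11-library difference was -0.52 ± 0.16 (adjusted p = 0.204, limma). Tk1, thymidine kinase, stood at 6.98, 5.92, 6.91, 6.35 and 6.87 across DKO 1 to 5, 6.17, 5.85, 6.90, 6.79 and 7.20 across Math1-Cre 1 to 5 and 7.22, 7.47, 7.03, 7.11 and 6.91 across no-Cre 1 to 5. It had the widest spread among the low-row libraries of the genes in this role, with DKO 5 near the lowest no-Cre value and DKO 2 and Math1-Cre 2 below 6. The 11-library difference was -0.77 ± 0.19, a factor of 1.7 (adjusted p = 0.0983, limma). Rrm1, the other reductase subunit, differed by -0.35 ± 0.12 over 11 libraries.

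Genes for chromatin behind the fork and for histone mRNA had a median of -0.35 over 4 genes with 15 libraries and -0.51 with 11. Chaf1a, of the chromatin assembly factor that works with Pcna, stood at 7.00, 6.18, 6.88, 6.31 and 6.73 across DKO 1 to 5, 6.58, 6.67, 6.86, 7.28 and 6.98 across Math1-Cre 1 to 5 and 7.51, 7.34, 6.93, 6.67 and 6.80 across no-Cre 1 to 5. DKO 5 lay above no-Cre 4, and Math1-Cre 2 was level with it. The 11-library difference was -0.64 ± 0.20 (adjusted p = 0.189, limma). Slbp, which binds the stem loop of histone mRNA, stood at 8.56, 8.50, 8.41, 8.42 and 8.56 across DKO 1 to 5, 8.55, 8.41, 8.82, 8.83 and 8.78 across Math1-Cre 1 to 5 and 8.89, 8.86, 8.65, 8.44 and 8.69 across no-Cre 1 to 5. Its values spanned less than those of Chaf1a, no-Cre 4 overlapped with the DKO libraries, and the 11-library difference was -0.21 ± 0.10 (adjusted p = 0.414, limma). Chaf1b, a second subunit of the chromatin assembly factor, differed by -0.47 ± 0.14 over 11 libraries. Uhrf1, which carries DNA methylation through replication, differed by -0.54 ± 0.18 over 11 libraries.

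Genes of G1/S control and the replication checkpoint had a median of -0.37 over 4 genes with 15 libraries and -0.51 with 11. E2f1, an activating E2F factor, stood at 8.16, 7.42, 8.28, 7.74 and 8.13 across DKO 1 to 5, 7.86, 7.67, 8.12, 8.15 and 8.33 across Math1-Cre 1 to 5 and 8.54, 8.54, 8.08, 8.12 and 8.22 across no-Cre 1 to 5. DKO 5 lay within the no-Cre range and DKO 2 was lowest; the 11-library difference was -0.53 ± 0.16 (adjusted p = 0.179, limma). Ccne1, cyclin E1, stood at 5.90, 5.57, 5.64, 5.54 and 5.83 across DKO 1 to 5, 5.44, 5.72, 5.61, 5.87 and 5.73 across Math1-Cre 1 to 5 and 6.00, 5.94, 5.93, 5.72 and 6.09 across no-Cre 1 to 5. Math1-Cre 1 was lowest, DKO 1 and 5 overlapped the no-Cre range, and the 11-library difference was -0.29 ± 0.11 (adjusted p = 0.279, limma). Chek1, the checkpoint kinase, stood at 6.85, 6.52, 6.49, 6.55 and 6.76 across DKO 1 to 5, 6.44, 6.38, 6.92, 7.02 and 7.08 across Math1-Cre 1 to 5 and 7.57, 7.30, 6.90, 6.71 and 7.04 across no-Cre 1 to 5. DKO 3 again lay among the low-row libraries, and the 11-library difference was -0.49 ± 0.16 (adjusted p = 0.23, limma). Clspn (claspin), the adaptor that lets Chek1 be activated at stalled forks, stood at 5.28, 4.39, 5.24, 4.45 and 4.69 across DKO 1 to 5, 4.67, 4.49, 4.99, 5.30 and 5.28 across Math1-Cre 1 to 5 and 5.35, 5.47, 5.09, 4.93 and 5.18 across no-Cre 1 to 5. The 5 low-row libraries were lowest and DKO 1 and 3 lay within the no-Cre range. Its difference was -0.39 ± 0.20 over 15 libraries (adjusted p = 0.314, limma) and -0.69 ± 0.13 over 11, a factor of 1.62 (adjusted p = 0.0281, limma).

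**Figure D4:**
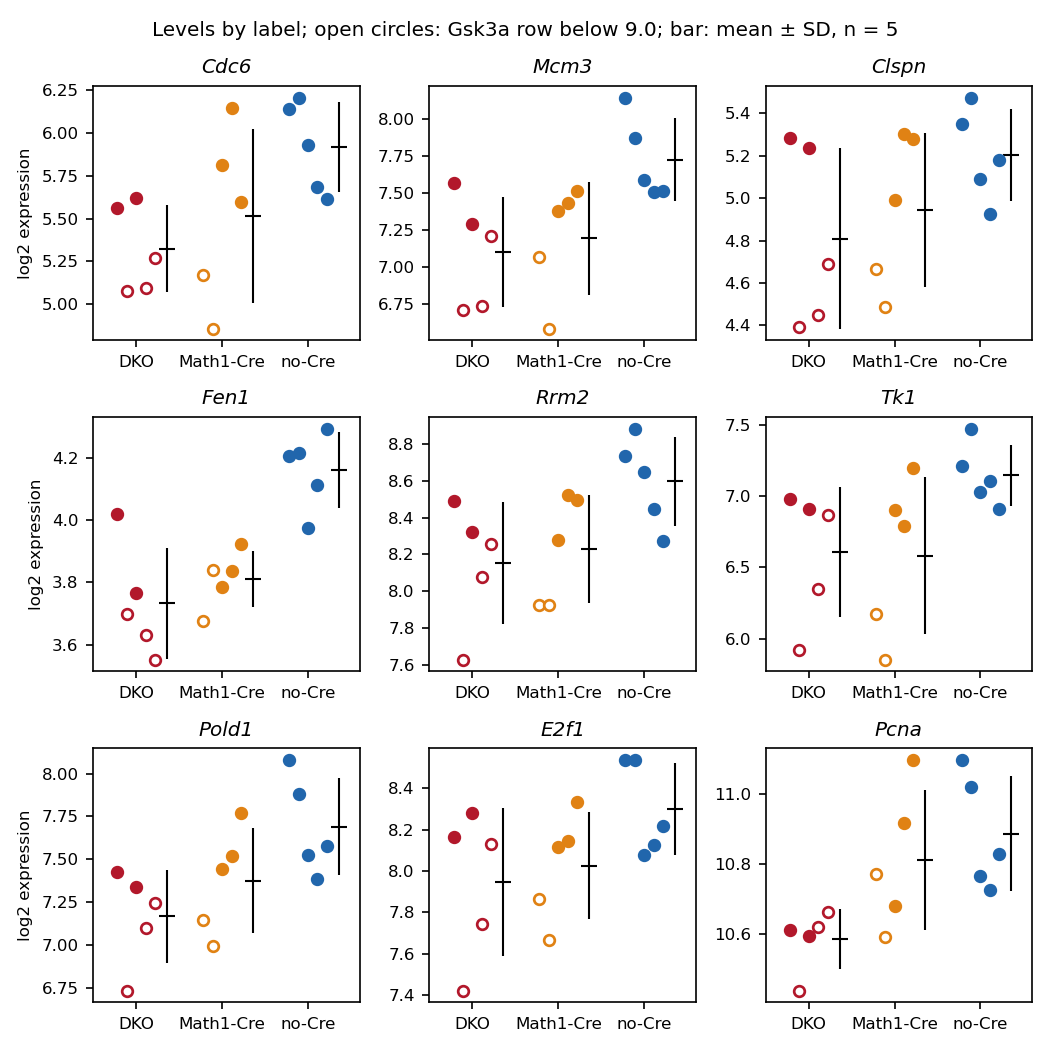
Log2 expression of 9 replication genes in each library by labelled group (5 libraries each), with the group mean ± SD as a bar; open circles are libraries with a Gsk3a row below 9.0. For Cdc6, Mcm3, Clspn, Rrm2 and Pold1 the open circles lie below every filled one, whereas for Pcna all DKO points lie below the no-Cre points.

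The Math1-Cre control shares its no-Cre and DKO partners with the comparisons above, so its values are given beside them. Against no-Cre over 15 libraries, 45 of 48 replication genes were below 0, with a median of -0.20, where 42.2% of all genes were below 0. Limma called 0 of 48 lower and 0 of 22180 genes in all; at an unadjusted p under 0.05, 10 of 48 were lower, against 1.03% of all genes. Over 11 libraries the median was -0.05, 32 of 48 were below 0 (40.4% of all genes) and 1 had an unadjusted p under 0.05 (0.568% of all genes). Only Fen1, on its row at background, had all Math1-Cre libraries below all no-Cre libraries over the 15, 1 of 48 genes against 0.207%; over the 11 it was again Fen1 alone, 1 of 48 against 0.803%.

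Between the DKO and Math1-Cre groups over 15 libraries the median difference of the replication genes was -0.09, and 42 of 48 were below 0, where 60.7% of all genes were; that median turned to 0.01 under quantile normalization and to 0.04 with centring, which raised every difference by 0.14. Limma called 0 of 48 lower (0.419% of all genes) and 0 higher (0.131%), and 4 of 48 were lower at an unadjusted p under 0.05 (15.4% of all genes). Over 11 libraries, all 48 were below 0 with a median of -0.40, where 62.3% of all genes were below 0; under quantile normalization and under centring 46 of 48 stayed below. Limma called 0 of 48 lower, against 0.252% of all genes, and 0 higher, against 0.289%, and 32 had an unadjusted p under 0.05, against 10.3%. In 33 of 48 genes DKO 2, 4 and 5 lay below Math1-Cre 3, 4 and 5, against 16.9% of all genes. Clspn came closest, with -0.68 ± 0.15 (adjusted p = 0.0786, limma), followed by Cdc6 among the genes given by library, with -0.70 ± 0.18 (adjusted p = 0.118, limma). Ccne1 differed least, by -0.09 ± 0.12 (adjusted p = 0.708, limma). Without no-Cre 4, which enters only the shared estimate of spread, 3 genes were called (Clspn, Prim1 and Prim2, against 1.04% of all genes). Without DKO 5 it was 1 (Cdc45). The count over all genes ran from 44 without DKO 4 to 446 without no-Cre 4.

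A further 49 genes of the same pathway were listed, 46 of them measured. Over 15 libraries their median DKO minus no-Cre difference was -0.24, 43 of 46 were below 0 (54.1% of all genes), and limma called 0 lower (0.0541% of all genes), with 21 lower at an unadjusted p under 0.05 (11.9%). Over 11 libraries 5 of 46 fell (0.64% of all genes) and 0 rose (0.437%), with a median of -0.29. These were Ticrr, which helps load Cdc45 (-0.71 ± 0.15, adjusted p = 0.0437), E2f2, an activating E2F factor (-0.64 ± 0.11, adjusted p = 0.0171), and E2f8, a repressing one (-0.76 ± 0.16, adjusted p = 0.0454). The others were Ccna2, cyclin A2 (-0.53 ± 0.10, adjusted p = 0.0305), and Esco2, the cohesin acetyltransferase (-0.72 ± 0.13, adjusted p = 0.0257), all by limma. Against Math1-Cre over 11 libraries E2f2 was the only 1 of the 46 called (0.252% of all genes lower), at -0.74 ± 0.12 (adjusted p = 0.0239, limma), and the median was -0.33. Among the replication genes with a promoter, those with an E2F word had a median DKO minus no-Cre difference of -0.50 over 11 libraries (16 genes) and those without of -0.44 (24 genes).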

How the data were processed

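Total RNA of 15 libraries was hybridised to Affymetrix whole-transcript arrays, 1 per library. The deposited values are log2 expression. RMA, Partek 6.6 and build mm9 are named in the submitters' processing notes; how the authors ran them is not given in the sources used here. RMA summarises several probes per row, and near background it compresses differences. The array has 41345 rows. Those annotated to a lone symbol (23521) gave 22180 genes; a gene with several rows was represented by the row with the highest mean. Replication genes were matched by symbol.

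limma 3.58.1 (R 4.3.3) fitted 1 mean per labelled group, with eBayes moderation, two-sided p-values, Benjamini-Hochberg adjustment over all genes in each comparison and a threshold of 0.05. The fit had 12 residual degrees of freedom with 15 libraries and 8 with 11. The scripts were checked on simulated data.

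The genes, the roles, the other lists and the 11-library fit were chosen with earlier results of these data known. All listed genes but Rfc4 were described. Values in each library are given for Orc1, Cdc6, Cdt1, Mcm2, Mcm3, Mcm6, Pola1, Pcna, Fen1, Rrm2, Tyms, Ccne1 and E2f1, for genes past the threshold in any comparison, and for the genes of each role with the largest and the smallest absolute DKO minus no-Cre difference over 15 libraries. Cell type lists were summarised by the mean level of their measured genes per library. The 4 erythroid markers had no row of their own. Promoter sequences are RefSeq's of GRCm38.p6. Each result was recomputed after dropping genes of low mean (under percentile 30), after quantile normalization and after centring on array medians. Further settings were trend and robust eBayes, only the groups compared, the replicate number as a block, a code shared by the replicate-5 descriptions as a block or left out, array spread as a covariate, the mean over a gene's rows, and each library left out. Plots used Python 3.11.15 and matplotlib 3.10.9. Precision is limited by the small number of arrays.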

Additional observations from a re-analysis of the deposited data

Results flagged for a closer look

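The 84 checks within a group of 5 libraries covered single genes, the replication gene median and the Gsk3a row. In chance data with independent checks about 1 in 20 would stand out, and 3 did. The replication genes vary together, and the DKO and Math1-Cre groups mix low and high Gsk3a rows. The count therefore cannot be set against that rate. Each was a replication gene with a library far from the other 4. Orc6 in Math1-Cre 2 was 8.40, with the nearest other Math1-Cre library at 8.56. Gins4 in no-Cre 4 was 8.85, with the nearest at 9.10. Dscc1 in no-Cre 2 was 6.01, with the nearest at 5.74. Math1-Cre 2 is a library with a low Gsk3a row, and no-Cre 4 has the narrowest spread of array values (interquartile range 4.00). The part of either in these values was not tested.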

How the results depend on the processing

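No replication gene was called higher under any setting. For DKO minus no-Cre with 15 libraries, 0 replication genes were called lower, and 4 without DKO 1, DKO 3, Math1-Cre 1 and Math1-Cre 2. All genes called went from 16 to 239 without those 4, 33 with trend and robust eBayes, 7 with the code as a block, 6 with centring, 2 with only these groups, 2 without the coded libraries, and 0 with quantile normalization or array spread. With the replicate number as a block it was 6. For DKO minus Math1-Cre all genes called went from 122 to 236 with trend and robust eBayes, 23 with centring, 20 with quantile normalization, 1 without the coded libraries and 0 with array spread or the replicate block. The median of the replication genes there went from -0.09 to -0.40 without the 4 libraries.

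With 11 libraries, the 4 replication genes called lower for DKO minus no-Cre became 2 with centring, 1 with only these groups, 1 with array spread and 0 with the replicate block. With the mean over a gene's rows Fen1 lost its call, and without the coded libraries Cdc6, Fen1 and Clspn did while Cdc45 and Tk1 gained one. All genes called went from 239 to 147 with array spread, 131 with only these groups, 117 without the coded libraries and 42 with the replicate block. For DKO minus Math1-Cre, 0 called became 1 (Clspn) with quantile normalization, and the median went from -0.40 to -0.28 with quantile normalization, -0.27 with array spread and -0.25 with centring. All genes called went from 120 to 60 with array spread, 47 without the coded libraries, 39 with only these groups and 25 with the replicate block.

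Leaving out each library, replication genes called lower ran from 0 to 7 for DKO minus no-Cre with 15 libraries and from 0 to 20 with 11, and from 0 to 3 for DKO minus Math1-Cre with 11. All genes called ran from 0 to 1546 and from 80 to 1060 for DKO minus no-Cre, and from 0 to 1288 and from 44 to 446 for DKO minus Math1-Cre. The median of the replication genes ran from -0.38 to -0.24 and from -0.50 to -0.36 for DKO minus no-Cre, from -0.16 to -0.04 and from -0.47 to -0.32 for DKO minus Math1-Cre, and from -0.27 to -0.13 and from -0.11 to 0.0011 for Math1-Cre minus no-Cre.

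Signs turned for a few genes. For DKO minus no-Cre with 15 libraries, Orc6 was 0.032 and Lig1 0.013 with centring, and 0.020 and 0.040 with array spread. Leaving out each library, Orc6 ran from -0.12 (without DKO 1) to 0.043 (without DKO 4). Dscc1 was -0.17 without the 4 libraries and ran from -0.098 (without DKO 3) to 0.084 (without no-Cre 2) with each left out. For DKO minus Math1-Cre with 11, Dscc1 was 0.043 with quantile normalization and 0.044 with centring, and Ccne1 was 0.054, 0.050 and, with array spread, 0.022.

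Of the 4 genes called with 11 libraries, adjusted p (limma) reached 0.237 for Cdc6, 0.133 for Mcm3, 0.0906 for Fen1 and 0.134 for Clspn with the replicate block; the causes of these shifts were not tested. Correlations of deviations from the labelled-group means ran from -0.30 to 0.30 over 15 same-numbered pairs. The DKO and Math1-Cre means mix low and high Gsk3a rows, so this check cannot decide whether the numbers pair the libraries. With 5 libraries a group or fewer the precision is low, and Fen1 and Orc1 lie at or near the array's background.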

Other observations

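The 5 no-Cre libraries, which share a label, were themselves spread in the replication genes. The number of the 48 genes below the no-Cre mean was 2 in no-Cre 1, 1 in no-Cre 2, 35 in no-Cre 3, 47 in no-Cre 4 and 31 in no-Cre 5.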
